A study of Homo sapiens with 21 samples.

Results

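The 10 genes described here encode cytokines and receptors of the IL-1 and IL-6 families: the ligands IL1A, IL1B, IL33, IL6, IL11 and LIF, and the receptor chains IL1R1, IL1RAP, IL6ST and LIFR. They were chosen by name from the 61544 genes of the count table, and all 10 were found there. Poly(A)-selected RNA was sequenced from BJ, an established line of human skin fibroblasts with a limited replicative lifespan. The protocol in the labels describes RNA, although the fields for molecule and library source read genomic. Untreated cells came from 5 passages (P3, P11, P24, P30, P33). Cells at P11 were also given either DOX (doxorubicin, a drug that traps topoisomerase on DNA) at a dose of 50 ng/ml or its solvent DMSO, for a time that the labels leave unstated. Each of these 7 groups had 3 libraries, all from the same line. The labels do not say that the replicates were separate cultures, so each p-value covers no more than the spread among these libraries, and that spread may be technical.

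IL-1 alpha and IL-1 beta bind the receptor IL1R1, which needs the accessory chain IL1RAP to signal through MYD88 and the IRAK kinases to NF-kappaB and AP-1. IL-6, IL-11 and LIF each bind a receptor of their own and signal through the shared chain gp130, encoded by IL6ST, to the JAK kinases and STAT3. In senescent fibroblasts these cytokines belong to the secreted factors known as the senescence-associated secretory phenotype, in which IL-1 alpha is known as an upstream inducer of IL-6 and IL-8.

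Library totals ran from 12946375 to 27194352 counts. The fibroblast marker list (14 genes such as COL1A1, VIM and PDGFRB) summed to between 15799 and 47142 CPM (counts scaled to the size of a library) in the 21 libraries, while the leukocyte list summed to 6.74 CPM at most and the endothelial list to 12.3 at most. The cycling marker MKI67 had a mean of 510 CPM at P3, 106 at P30, 153 at P33, 151 with DMSO and 8.70 with DOX. Overlapping genes were not counted alike in the passage libraries and the DOX and DMSO libraries, since 9429 genes wholly inside another gene of the same strand had no reads in the former and 3950 of them had reads in the latter. The passages and the drug treatment are therefore described apart, and levels are not compared across them: untreated P11 and DMSO cells, for example, were listed at 126 and 762 CPM of IL1R1 and at 877 and 1713 CPM of IL6ST, and the harvest and the counting cannot be told apart there.

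Levels between genes were compared per kilobase of exon. At P3 the signalling chain IL6ST stood at 92.2 CPM per kb, above IL1R1 at 17.5, and both stood above every ligand. The next receptor chain, LIFR, stood at 2.45 CPM per kb and IL1RAP at 0.553. Among the ligands IL11 had 2.53 CPM per kb at P3, IL6 1.97, LIF 1.03, IL1B 0.666, IL1A 0.160 and IL33 0.0359. By P33 the order of the ligands was different, with IL1B at 3.86 CPM per kb, IL1A at 3.49, IL6 at 3.27, IL11 at 2.81 and LIF at 2.69.

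The first question was how these genes moved as the cells passed from P3 to P33. The IL-1 ligands and LIF reached their highest level at P33, after a course that was not gradual: IL1A rose from P3 to P11 and again from P30 to P33, while IL1B and LIF were at their lowest at P30. The accessory receptor IL1RAP rose step by step, LIFR fell after P24, and IL1R1 and IL6ST moved by less than 1.4-fold between any passages. Of the 9 members that passed the filter on low counts, 9 differed somewhere among the 5 passages (edgeR quasi-likelihood test, Benjamini-Hochberg adjusted, the highest adjusted p being 0.000896 for IL6ST). Over all 16821 genes tested 82.9% did so, and the share among the members is read against that.

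**Figure D1:**
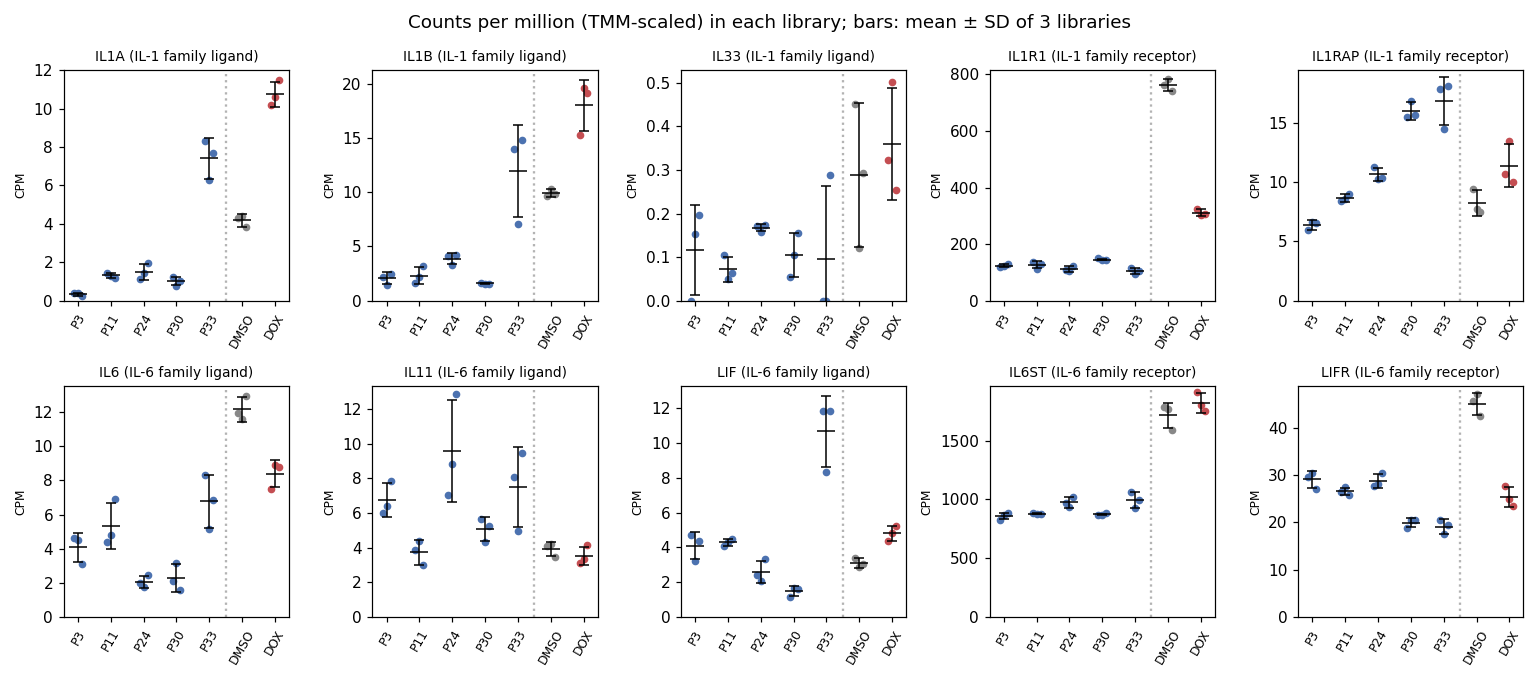
Level of each of the 10 genes in each of the 21 libraries, in CPM on linear axes that start at 0, 1 panel a gene, with 1 point a library and black bars for the mean ± SD of the 3 libraries of a group. IL1A, IL1B and LIF sit highest at P33 among the passages, and IL1R1 and LIFR sit lower with DOX than with DMSO.

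IL1A encodes IL-1 alpha, a cytokine that is active already as its precursor and can act from the cell surface. Its gene lies at chr2:112773925-112784493 on the minus strand (coordinates of the deposited table). The P3 libraries held 0.390, 0.385 and 0.245 CPM, from only 10, 10 and 5 reads. Levels were 1.46, 1.28 and 1.20 CPM at P11, 1.14, 1.42 and 1.96 at P24, and 1.22, 0.789 and 1.01 at P30. All P3 libraries lay below all later ones, and the libraries of P11, P24 and P30 overlapped. At P33 the libraries held 8.34, 6.26 and 7.67 CPM, from 198, 133 and 159 reads, and none came near the range of an earlier passage. The step from P3 to P11 measured 1.91 on the log2 scale (SE 0.306, adjusted p = 4.63e-06), and that from P30 to P33 was 2.89 (adjusted p = 2.37e-14). Between P11 and P24 no change was called, nor from P24 to P30 (-0.62, adjusted p = 0.0559), although the latter was called without P24 replicate 1 or P30 replicate 1 (adjusted p = 0.0237 and 0.0412).

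IL1B encodes IL-1 beta, which is secreted after its precursor is cleaved by caspase-1 in the inflammasome. It lies at chr2:112829751-112836816, 45257 bases from IL1A and on the same strand. Its levels were 2.22, 1.46 and 2.50 CPM at P3, 1.62, 2.17 and 3.16 at P11, 4.15, 3.26 and 4.18 at P24, and 1.66, 1.58 and 1.55 at P30. The P24 libraries stood above those of the other early passages, and the P30 libraries returned to the P3 range. At P33 the levels were 13.98, 7.06 and 14.8 CPM, all above every earlier library, with replicate 2 well below the other P33 libraries. IL1B was thus higher at P24 than at P3 (log2 difference 0.93, adjusted p = 0.00259), fell from P24 to P30 by 1.27 on the log2 scale (adjusted p = 0.000799), and rose from P30 to P33 by 2.90 (adjusted p = 8.91e-12). The mean at P33 was 7.49 times the mean at P30.

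IL33, an IL-1 family member that is stored in the nucleus and released from damaged barrier cells, was almost absent. The passage libraries held between 0 and 6 reads each, the 6 reads being in P33 replicate 3 while replicates 1 and 2 of that group held 0. IL33 failed the filter on low counts and was not tested in any comparison. A difference between passages was not detectable at this depth.

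IL6 encodes interleukin-6 and lies at chr7:22725884-22732002 on the plus strand. Its levels were 4.64, 4.51 and 3.09 CPM at P3, and 4.39, 4.78 and 6.89 at P11. They were lower at P24, with 1.99, 1.74 and 2.44 CPM, and at P30, with 2.1, 3.16 and 1.55. At P33 the 3 libraries held 8.30, 5.18 and 6.85 CPM, above all libraries of P3, P24 and P30 but overlapping those of P11. IL6 therefore fell by 1.343 on the log2 scale from P11 to P24 (adjusted p = 9.86e-06) and rose by 1.53 from P30 to P33 (adjusted p = 2.4e-07). Against P11 the P33 level was not called (log2 difference 0.37, adjusted p = 0.0746), although it was without P33 replicate 2 (0.55, adjusted p = 0.00898) or without P11 replicate 3 (0.56, adjusted p = 0.0124). IL6 overlaps STEAP1B on the opposite strand, a gene with 2667 reads over the passage libraries, and whether reads were counted by strand is not stated in the labels.

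IL11 encodes interleukin-11, a cytokine that fibroblasts make and that acts back on them, and it lies at chr19:55364382-55370463 on the minus strand. The levels were 6.01, 6.39 and 7.85 CPM at P3, 3.87, 4.38 and 2.97 at P11, 7.06, 8.83 and 12.8 at P24, 5.63, 4.31 and 5.27 at P30, and 8.09, 4.94 and 9.45 at P33. The P11 libraries were low and the P24 libraries high, while P33 overlapped P3, P24 and P30. IL11 fell by 0.82 on the log2 scale from P3 to P11 (adjusted p = 0.00143), rose by 1.36 from P11 to P24 (adjusted p = 2.24e-06) and fell by 0.94 from P24 to P30 (adjusted p = 0.000253). P33 against P3 was not called (0.16, 95% interval -0.21 to 0.53, adjusted p = 0.45), but it was called without P33 replicate 2 (0.40, adjusted p = 0.0416).

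LIF encodes leukaemia inhibitory factor, which signals through LIFR paired with gp130, and lies at chr22:30240453-30246759 on the minus strand. It fell before it rose. The libraries held 4.72, 3.24 and 4.37 CPM at P3, 4.07, 4.28 and 4.49 at P11, 2.39, 2.05 and 3.31 at P24, and 1.16, 1.68 and 1.63 at P30. All P30 libraries were below all others, and all P33 libraries, with 11.8, 8.33 and 11.9 CPM, were above all others. LIF was lower at P30 than at P3 by a log2 difference of -1.46 (adjusted p = 6.09e-07) and rose from P30 to P33 by 2.85 (adjusted p = 3.94e-14), a step of the size seen for IL1A and IL1B. Its P33 mean was 7.16 times its P30 mean.

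Because 5 ligand transcripts moved by over 2-fold between passages, the DNA just before their start sites is shown where it carries a match to a binding motif of the factors these pathways act through. The windows are the 250 bases before the start in RefSeq (GRCh38.p14), which held an entry for 9 of the 10 genes. LIF had no entry and was not searched. Only the stretch that lies outside every exon of the same gene in GENCODE 29 is printed, 5′ to 3′ on the gene's own strand, and capitals mark the matches. The motifs searched on both strands were AP-1 (TGANTCA), C/EBP (TTGCNNAA), the CRE core (TGACGT), STAT (TTCNNNGAA) and the NF-kappaB consensus. No match of one motif overlapped a match of another in the stretches shown.
IL1B chr2:112836904-112837029 (minus strand): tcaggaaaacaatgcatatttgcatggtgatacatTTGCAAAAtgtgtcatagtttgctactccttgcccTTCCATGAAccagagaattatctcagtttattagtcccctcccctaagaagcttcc
IL6 chr7:22726950-22727146 (plus strand): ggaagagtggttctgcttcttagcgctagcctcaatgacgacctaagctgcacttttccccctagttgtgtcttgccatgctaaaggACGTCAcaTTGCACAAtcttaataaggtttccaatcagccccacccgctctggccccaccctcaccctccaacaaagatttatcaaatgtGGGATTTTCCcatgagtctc
IL11 chr19:55370464-55370713 (minus strand): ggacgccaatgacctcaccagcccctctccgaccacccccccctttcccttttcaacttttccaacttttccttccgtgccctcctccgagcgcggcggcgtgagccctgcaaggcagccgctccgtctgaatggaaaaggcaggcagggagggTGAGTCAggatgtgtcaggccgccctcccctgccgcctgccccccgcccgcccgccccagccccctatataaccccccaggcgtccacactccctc

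The IL1B stretch holds a C/EBP match from 215 to 208 bases before the start and a STAT match from 180 to 172. The IL6 stretch holds a CRE core on its reverse strand (163 to 158 bases before the start), a C/EBP match (155 to 148) and an NF-kappaB match (73 to 64). The RefSeq start of IL6 lies 1316 bases inside the gene as the table gives it. The IL11 stretch holds an AP-1 match from 96 to 90 bases before the start, and the IL1A window, which is not printed because its match lies in a GENCODE 29 exon, holds an AP-1 match from 12 to 6. Over 35116 RefSeq windows of the same length the share with a match was 5.21% for NF-kappaB, 6.57% for AP-1, 9.05% for C/EBP, 7.1% for the CRE core and 6.57% for STAT. These matches describe the letters only, and nothing was measured on binding.

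Among the receptor chains the highest and lowest passage means differed by 1.16-fold for IL6ST, 1.39-fold for IL1R1, 1.52-fold for LIFR and 2.63-fold for IL1RAP. IL1R1, the signalling receptor for both IL-1 forms, lies at chr2:102064544-102179874 on the plus strand. It stood at 120.0, 122.7 and 129 CPM at P3, 137, 113 and 129 at P11, 109, 105 and 122 at P24, 149, 143 and 144 at P30, and 114, 95.2 and 106 at P33. The P30 libraries were the highest and those of the other passages overlapped their neighbours in level. IL1R1 rose from P24 to P30 by 0.38 on the log2 scale (adjusted p = 2.81e-05) and fell by 0.47 from P30 to P33 (adjusted p = 5.06e-07), the step at which its ligands rose. At P33 against P3 it fell by 0.24 (adjusted p = 0.00201), a call lost without P33 replicate 2 (-0.15, adjusted p = 0.0546).

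IL1RAP, the accessory chain that IL1R1 needs to signal and that the IL-33 receptor shares, lies at chr3:190514051-190659750 on the plus strand. Its libraries held 5.93, 6.66 and 6.57 CPM at P3, 8.41, 8.57 and 9.04 at P11, 11.3, 10.3 and 10.3 at P24, 15.5, 16.9 and 15.65 at P30, and 17.9, 14.5 and 18.1 at P33. No library of P3, P11, P24 or P30 overlapped the next of these passages, and P33 overlapped P30. From P3 to P33 the log2 difference was 1.40 (SE 0.108, adjusted p = 3.94e-13), or 2.64-fold. The smallest called step, from P11 to P24 (0.30, adjusted p = 0.0448), was lost on leaving out any 1 library of either group (adjusted p from 0.0598 to 0.146), and the step from P30 to P33 was not called. Reads of genes inside IL1RAP on the same strand cannot be told apart from its own in the passage libraries. In the DOX and DMSO libraries these genes held 1, 1 and 0 reads, beside 1195 for IL1RAP.

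IL6ST, the shared gp130 chain, lies at chr5:55935095-55995022 on the minus strand. It stood between 826 and 880 CPM in the P3, P11 and P30 libraries, at 972, 931 and 1018 at P24 and at 1058, 927 and 995 at P33. The P24 and P33 libraries overlapped each other and stood above all others. The difference between P33 and P3 was small and called (log2 difference 0.21, SE 0.0553, adjusted p = 0.00102, or 1.16-fold).

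LIFR, the receptor chain for LIF, lies at chr5:38474668-38608354 on the minus strand. Its libraries held 29.7, 30.5 and 27.1 CPM at P3, 26.5, 27.4 and 25.8 at P11, 27.8, 28.0 and 30.4 at P24, 18.8, 20.5 and 20.5 at P30, and 20.4, 17.5 and 19.5 at P33. The P30 and P33 libraries overlapped each other and lay below all earlier ones. LIFR fell by 0.53 on the log2 scale from P24 to P30 (adjusted p = 1.07e-06) and no change was called from P30 to P33, where its ligand rose. At P33 against P3 it fell by 0.61 (SE 0.0723, adjusted p = 7.09e-09).

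**Figure D2:**
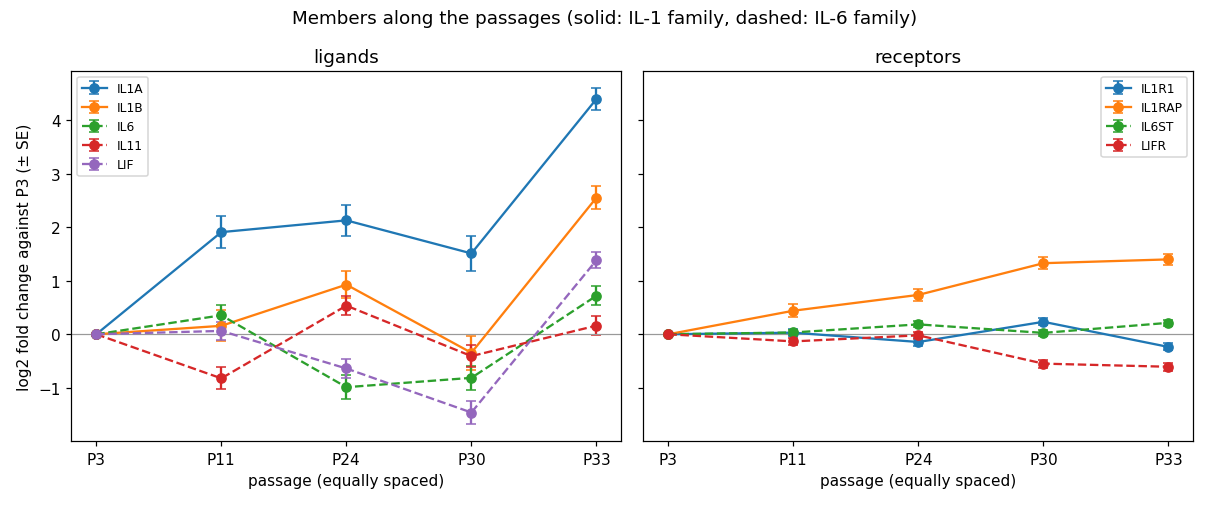
Log2 difference from P3 of the 9 tested genes at each passage (passages equally spaced), with bars for the SE of the fit, ligands in one panel and receptor chains in the other, solid lines for the IL-1 family and dashed lines for the IL-6 family. IL1A, IL1B, IL6 and LIF rise from P30 to P33, while IL1RAP climbs through every passage to P30 and LIFR is lower at P30 and P33.

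Counted over the members, P33 against P3 gave 6 higher and 2 lower of 9 tested, where 67.8% of all genes were called (34.5% higher and 33.3% lower). The median log2 difference of the members was 0.72 against 0 over all genes. P11 against P3 gave 2 higher and 1 lower (46.5% of all genes called, 22.9% higher and 23.6% lower), P24 against P3 gave 5 and 2 (54.4%, 26.6% and 27.8%), and P30 against P3 gave 3 and 3 (58.6%, 29.0% and 29.6%). At P24 against P3 the IL11 call (0.53, adjusted p = 0.0109) was lost with DESeq2 (adjusted p = 0.0671). It was also lost without P3 replicate 1 (0.0529) or P24 replicate 3 (0.28). For P33 against P11, the passage at which the drug was given, the counts were 6 and 2 (57.4%, 27.7% and 29.7%). Between neighbouring passages the members moved mostly down from P24 to P30, with 2 higher and 5 lower (35.1% of all genes called, 18.0% and 17.1%), and mostly up from P30 to P33, with 6 higher and 1 lower (48.4%, 23.6% and 24.8%). The 6 that rose in this last step were IL1A, IL1B, IL6, IL11, LIF and IL6ST, of which the IL11 call (0.57, adjusted p = 0.0186) was lost when P30 replicate 2 (adjusted p = 0.114), P33 replicate 1 (0.068) or P33 replicate 3 (0.145) was left out, and the IL6ST call (0.19, adjusted p = 0.0053) without P33 replicate 1 (adjusted p = 0.0569). From P11 to P24 the counts were 4 and 3 (33.6%, 16.0% and 17.7%), and the 4 rises fell to 1 without P11 replicate 1 or 2 or without P24 replicate 1 or 3, and to 2 without P11 replicate 3. The IL1R1 fall of this step (-0.17, adjusted p = 0.042) was lost in 9 of 13 alternative runs (adjusted p up to 0.281). From P24 to P30 the LIF call (-0.82, adjusted p = 0.00712) was lost without P24 replicate 3 or P30 replicate 1 (adjusted p = 0.0995 and 0.062), and without P24 replicate 3 the count of lower members was 3. The IL6ST call of this step (-0.16, adjusted p = 0.0241) was lost without P24 replicate 1 or 3 or P30 replicate 1 or 2 (adjusted p from 0.055 to 0.125).

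The 3 libraries of P33 were not alike for these genes. Replicate 2 had the lowest level of its group for all 9 tested members, whereas over all genes tested it was the lowest for 32.3%. The serum-response gene FOS was 73.8, 7.91 and 27.1 CPM in replicates 1, 2 and 3, and EGR1, of the same class, was 105, 35.7 and 67.4, so replicate 2 was the lowest for both. At P30, FOS was 7.57, 19.4 and 4.26 CPM and EGR1 128, 319 and 119 in replicates 1, 2 and 3. There replicate 2 was the highest for IL1RAP, IL6 and LIF, the lowest for IL1A, IL1R1 and IL11, and neither for IL1B, IL6ST and LIFR. FOS and EGR1 were looked at after their values were seen, and their part in the spread of the cytokines was not tested. Without replicate 2 the log2 differences of IL1A, IL1B and LIF from P3 were 4.52, 2.84 and 1.55, and all 3 calls were kept.

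By their course over the 15 passage libraries, the genes nearest to each member that moved by 2-fold were found among 13187 genes of at least 1 CPM, by the root-mean-square difference in centred log2 CPM. For LIF the nearest were SLC1A2 (0.33), CMKLR2 (0.37) and COL14A1 (0.40), and for IL1B they were DDIT4 (0.37), ASPN (0.39) and STRA6 (0.42). IL6 was nearest to FIBIN (0.32), KLF4 (0.35) and ABCA6 (0.35). IL11 was nearest to ENSG00000260877 (0.32), ATP13A2 (0.32) and CCDC85C (0.32). The closest matches of all were those of IL1RAP, to ENSG00000287907 (0.12), MR1 (0.13) and GALNT5 (0.13), and the least close those of IL1A, to ENSG00000286153 (0.50), ENSG00000259200 (0.51) and INTS6-AS1 (0.52). No ligand or receptor of the list was among the nearest genes of another.

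The partners that complete these pathways were followed in lists of other IL-1 and IL-6 family genes. The antagonist IL1RN and the decoy receptor IL1R2 failed the count filter, with means of 0.275 and 0.331 CPM at most in any group. IL1RL1, the IL-33 receptor, was listed at 0 in all passage libraries, where it overlaps another gene on the same strand, and held 3 reads over the DOX and DMSO libraries. The IL-6 receptor chain IL6R rose from 5.86 to 7.05 CPM between P3 and P33 (log2 difference 0.27, adjusted p = 0.0445), and OSMR, the oncostatin M receptor that pairs with gp130, from 121 to 136 CPM (0.17, adjusted p = 0.0118). IL11RA, which overlaps another gene on the same strand, was at 0 in all passage libraries.

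In the list of IL-1 family partners and inflammasome genes, 24 of 34 were tested, and at P33 against P3 7 were higher, 12 lower and 5 not called, with a median log2 difference of -0.16. That is 29.2% higher and 50% lower, beside 34.5% and 33.3% of all genes tested. IL18, another inflammasome-processed cytokine, fell from 4.09 to 0.598 CPM (-2.78, adjusted p = 6.74e-12), the inflammasome adaptor PYCARD from 11.8 to 3.99 CPM (-1.56, adjusted p = 3.08e-12) and the inhibitory receptor SIGIRR from 5.47 to 2.35 CPM (-1.19, adjusted p = 4.43e-06). Other genes of the list were higher. The inflammatory caspase CASP5 went from 0.0385 to 0.963 CPM. The IL-18 receptor chain IL18R1 rose from 0.0749 to 0.907 CPM (adjusted p = 6.34e-06) and the kinase IRAK2 from 2.53 to 4.98 CPM (0.97, adjusted p = 1.76e-06). These 3 were chosen after their values were seen, and CASP5 and IL18R1 had the largest log2 differences of the list but stayed under 1 CPM. The highest mean of CASP5 outside P33 was 0.194 CPM, so it passed the count filter only through P33. Its test therefore lends no support, and it is among the 7 counted higher. In the IL-6 family partners and JAK-STAT list, 25 of 29 were tested, with 9 higher, 9 lower and 7 not called (median 0.13), or 36.0% in each direction and close to the share of all genes. IL11RA and 1 gene called lower passed the count filter only through the DOX and DMSO libraries, and among the other 23 genes 9 were higher and 8 lower. The receptor chain IL31RA went from 0.366 to 1.53 CPM (2.01) and EBI3, a subunit of IL-27 and IL-35, from 0.470 to 1.49 CPM (1.64, adjusted p = 1.04e-05). IL31RA had means of 0.366 CPM or less at every passage but P33, so it passed the count filter through P33. Its test therefore lends no support, and it is among the 9 counted higher.

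In a list of genes known to be induced by IL-1, most were higher at the last passage. This list and the other gene lists were chosen with earlier results of these data known, so their shares only describe these data. Of 23 tested of 27, 15 were higher, 4 lower (MMP1, MMP3, PTGES and ICAM1) and 4 not called at P33 against P3 (median 1.02), and from P30 to P33 13 were higher and 3 lower (MMP3, PTGES and ZC3H12A; median 0.59). The share of higher genes was 65.2% and 56.5%, beside 34.5% and 23.6% of all genes tested. CCL7 and CXCL6 did not pass the filter in the passage libraries alone, and without them 14 of 21 were higher at P33 against P3 and 12 of 21 from P30 to P33 (median 0.43). The largest called differences among genes of at least 1 CPM were those of neutrophil-attracting chemokines, although CXCL5 and CXCL6, of the same class, were not called, and CCL7 rose from 0.0423 to 0.635 CPM (adjusted p = 5.78e-06). CXCL2 rose from 0.295 to 3.66 CPM (3.62, adjusted p = 3.99e-12), CXCL8 from 0.422 to 5.02 CPM (3.57, adjusted p = 1.14e-12) and CXCL3 from 0.143 to 1.19 CPM (3.05). The highest mean of CXCL3 outside P33 was 0.337 CPM, with DMSO, so it passed the count filter only through P33. Its test therefore lends no support, and it is among the 14 and the 12 counted higher. Of the STAT3-induced list, 15 of 18 were tested and 9 were higher and 1 lower at P33 against P3 (60% and 6.7%, median 0.20), and 12 were higher and 1, CEBPD, lower from P30 to P33 (80.0% and 6.7%, median 0.54). CEBPB, a transcription factor of cytokine genes, rose from 38.1 to 146 CPM (1.94, adjusted p = 5.65e-19), IRF1 from 23.4 to 55.6 CPM (1.25, adjusted p = 2.39e-15) and VEGFA, the vascular growth factor, from 58.4 to 135 CPM (1.21, adjusted p = 1.4e-18). The 1 lower gene at P33 against P3 was SBNO2 (-0.27, adjusted p = 0.00345), and 3 genes were lower without P3 replicate 2 and 2 without P3 replicate 3 or P33 replicate 1. Medians over all genes were 0 in both comparisons.

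Other cell types that make IL-1 were looked for in the same libraries. The leukocyte list summed to between 3.43 and 4.09 CPM at P3 and to between 5.08 and 6.07 CPM at P33. Of its 14 genes 5 were tested and 2 were higher at P33, PTPRC (0.311 to 0.683 CPM) and CSF1R (0.642 to 1.70 CPM). That is 40%, near the 34.5% of all genes tested. The defining keratinocyte gene KRT5 had no read in any library. The keratinocyte list summed to between 315 and 340 CPM at P3 and between 220 and 232 at P33, and most of this sum was DSP, which fell from 302 to 151 CPM. Of the 8 keratinocyte genes tested 5 were higher at P33: CLDN1 (4.58 to 38.4 CPM), KRT10 (14.3 to 22.4), KRT17 (4.05 to 6.82), KRT15 (2.91 to 5.19) and DSG3 (0.0257 to 0.967). That is 62.5%, beside 34.5% of all genes tested. CDH1, also among the 8, was not called, and it passed the count filter in neither the passage libraries alone nor the drug libraries alone. In bulk RNA, fewer cells making a transcript and less of it per cell cannot be told apart, and the part of these markers in the cytokine levels was not tested.

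The second question was what DOX did to the same genes in P11 cells, against DMSO. The IL-1 ligands, IL1RAP and LIF were higher with DOX, whereas IL6 and the receptor chains IL1R1 and LIFR were lower. Of the 9 members tested 4 were higher and 3 lower, where 37.3% of all genes were called (16.7% higher and 20.6% lower). The median log2 difference was 0.09 for the members and -0.01 over all genes. MKI67 stood at 6.87 to 9.96 CPM with DOX against 132 to 166 with DMSO, and CDKN1A, the cell cycle inhibitor p21, at 464 to 502 against 142 to 150.

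IL1A held 4.33, 4.43 and 3.81 CPM with DMSO and 10.2, 10.6 and 11.5 with DOX. The groups were far apart, and the log2 difference was 1.35 (SE 0.133, adjusted p = 4.87e-10), or 2.55-fold. IL1B held 9.69, 10.3 and 9.80 CPM with DMSO and 15.3, 19.6 and 19.1 with DOX. Again no library overlapped, with a difference of 0.86 (SE 0.164, adjusted p = 7.9e-05), or 1.81-fold. IL33 stayed at trace level, with 10, 2 and 5 reads with DMSO and 8, 10 and 5 with DOX, and was not tested.

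IL6 moved the other way. Its libraries held 11.9, 11.6 and 12.97 CPM with DMSO and 7.50, 8.93 and 8.77 with DOX, without overlap, so that IL6 fell by 0.54 on the log2 scale (SE 0.152, adjusted p = 0.00505). Its overlapping neighbour STEAP1B held 567 reads over these 6 libraries. LIF held 3.38, 2.85 and 3.05 CPM with DMSO and 4.36, 4.82 and 5.25 with DOX, all DOX libraries being higher (0.62, SE 0.179, adjusted p = 0.00626). IL11 held 4.10, 4.18 and 3.46 CPM with DMSO and 3.11, 3.36 and 4.13 with DOX. These libraries overlapped and no change was called (-0.16, 95% interval -0.63 to 0.31).

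IL1R1 showed the largest change among the receptor chains. It held 762, 782 and 741 CPM with DMSO and 324, 304 and 306 with DOX, a fall of 2.44-fold (log2 difference -1.29, SE 0.0638, adjusted p = 2.53e-17). The accessory chain IL1RAP went the opposite way, from 9.46, 7.76 and 7.45 CPM to 10.7, 13.4 and 9.99, with the lowest DOX library just above the highest DMSO library (0.45, SE 0.113, adjusted p = 0.00167). LIFR held 45.6, 47.1 and 42.5 CPM with DMSO and 27.8, 24.9 and 23.5 with DOX, a fall of 1.77-fold (-0.82, SE 0.0693, adjusted p = 1.29e-11). IL6ST held 1781, 1766 and 1593 CPM with DMSO and 1910, 1799 and 1749 with DOX. The IL6ST libraries overlapped and the difference was not called (0.09, 95% interval -0.03 to 0.20). Per kilobase IL6ST remained the highest member, at 184 CPM with DMSO and 196 with DOX, and IL1R1 went from 108 to 44.0.

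**Figure D3:**
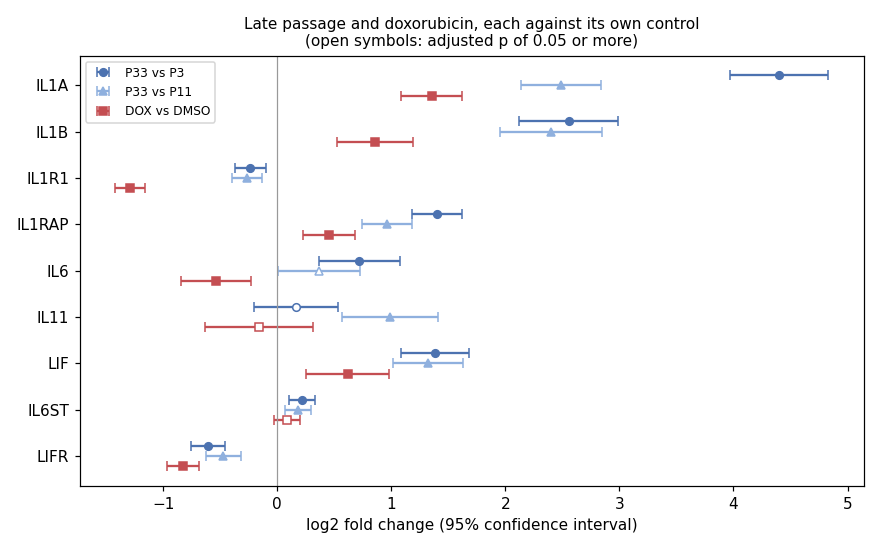
Log2 difference of the 9 tested genes at P33 against P3, at P33 against P11 and with DOX against DMSO, with bars for the 95% interval of the fit and open symbols where no change was called. IL6 lies above 0 at P33, though not called against P11, and below 0 with DOX. IL1R1 lies further below 0 with DOX than at P33.

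The size of each effect was then compared directly, as the DOX effect minus the P33 effect in 1 model, in which 51.2% of all genes were called. Of the 9 members 6 had a lower DOX effect and 0 a higher one (25.4% and 25.8% of all genes). At the IL-1 ligands both effects were upward and the DOX effect was the smaller, by -3.05 for IL1A (adjusted p = 7.55e-11) and -1.70 for IL1B (adjusted p = 4.2e-06). The same held for IL1RAP (-0.95, adjusted p = 6.43e-06) and LIF (-0.77, adjusted p = 0.00662). For IL6 the 2 effects had opposite signs (0.72 at P33 and -0.54 with DOX, difference -1.26, adjusted p = 2.66e-05). IL1R1 was lower in both and more so with DOX (-1.05, adjusted p = 2.23e-11). The difference was not called for IL11 (-0.32), IL6ST (-0.13) or LIFR (-0.22, adjusted p = 0.0706), although for LIFR it was without P33 replicate 2, DOX replicate 1 or DMSO replicate 3 (adjusted p = 0.0217, 0.0185 and 0.0401). The treated cells were at P11 and the late cells at P33, so that passage and agent differ together in this comparison. The P33 effect here is taken against P3, where IL1A rests on 10, 10 and 5 reads. Against P11, the P33 log2 difference was 2.49 for IL1A, 2.40 for IL1B, 0.96 for IL1RAP and 1.32 for LIF. For IL1R1 it was -0.27, and for IL6 it was 0.37 and not called. The DOX effect was not tested against these P11-based values.

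In the IL-1 partner list with DOX 1 was higher (TAB3), 7 lower and 16 not called (4.2% and 29.2%, beside 16.7% and 20.6% of all genes tested; median -0.15), and the count of lower genes was 4 without DMSO replicate 2. IRAK1, a kinase that carries the IL-1 signal, fell from 140 to 80.9 CPM (-0.80, adjusted p = 2.94e-12), CASP1, the protease that activates IL-1 beta, from 44.5 to 25.9 CPM (-0.78, adjusted p = 1.43e-10) and SIGIRR from 4.81 to 2.99 CPM (-0.68, adjusted p = 0.00863). The count of higher genes was 0 without DOX replicate 1, DMSO replicate 1 or DMSO replicate 3, and 2 without DOX replicate 2. Of the IL-6 partners 5 were higher (EBI3, IL31RA, CTF1 and STAT3 among them), 13 lower and 7 not called (20% and 52.0%, median -0.18), with 8 lower without DMSO replicate 2. IL31RA passed the count filter only through the passage libraries, and 4 of the other 24 were higher. The feedback inhibitor SOCS1 fell from 2.01 to 0.8 CPM (-1.30, adjusted p = 0.000122), as did CISH from 1.32 to 0.663 CPM (-0.998, adjusted p = 0.0107), a call lost without DMSO replicate 1 (adjusted p = 0.0664). Of the receptor chains in this list that join gp130, IL6R fell from 13.1 to 10.7 CPM (-0.29, adjusted p = 0.0269) and OSMR from 191 to 155 CPM (-0.30, adjusted p = 7.62e-05). Both falls were smaller than that of the member LIFR (-0.82), which also pairs with gp130. IL11RA stood at 1.97 CPM with DMSO and 1.93 with DOX.

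Of the genes known to be induced by IL-1, 3 of 23 were higher with DOX (MMP3, CCL2 and ICAM1), 11 lower and 9 not called (median -0.28). The 13% higher stands near the 16.7% of all genes, and the 47.8% lower beside 20.6%. CXCL3 and CCL7 did not pass the filter in the DOX and DMSO libraries alone, and among the other 21 genes 3 were higher and 11 lower. The collagenase MMP1 fell from 990 to 309 CPM (-1.68, adjusted p = 3.17e-19) and CXCL8 from 2.53 to 0.871 CPM (-1.52, adjusted p = 6.98e-05), while the stromelysin MMP3 rose from 55.1 to 135 CPM (1.29, adjusted p = 1.55e-15). In the STAT3-induced list 2 were higher (CCND1 and VEGFA), 5 lower (CEBPB, IL4R, PIM1, CEBPD and SBNO2) and 8 not called (13.3% and 33.3%, median -0.21), and 1 was higher without DOX replicate 3, DMSO replicate 1 or DMSO replicate 3. CEBPB fell from 73.7 to 41.8 CPM (-0.82, adjusted p = 3.98e-09), the IL-4 receptor chain IL4R from 13.8 to 7.93 CPM (-0.80, adjusted p = 2.6e-07) and the kinase PIM1 from 30.3 to 20.7 CPM (-0.55, adjusted p = 0.00013). Compared directly with the effect at P33 against P3, the DOX effect was lower for 17 of the 23 IL-1-induced genes. It was higher for 4 of them (MMP1, MMP3, PTGES and ICAM1), and the median was -1.20. Of the 15 STAT3-induced genes it was lower for 9 and higher for 1 (CCND1), with a median of -0.57. Over all genes tested 25.4% were lower and 25.8% higher, and the median was -0.02. The leukocyte list summed to between 1.64 and 2.43 CPM with DMSO and between 4.13 and 4.77 with DOX, with PTPRC (0.140 to 1.44 CPM) the 1 of 5 tested called higher. The keratinocyte list summed to between 343 and 395 CPM and between 381 and 467, with 3 of 8 tested called higher (KRT17, DSG3 and CLDN1). These are 20% and 37.5%, beside 16.7% of all genes tested. The part of these markers in the results was not tested.

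**Figure D4:**
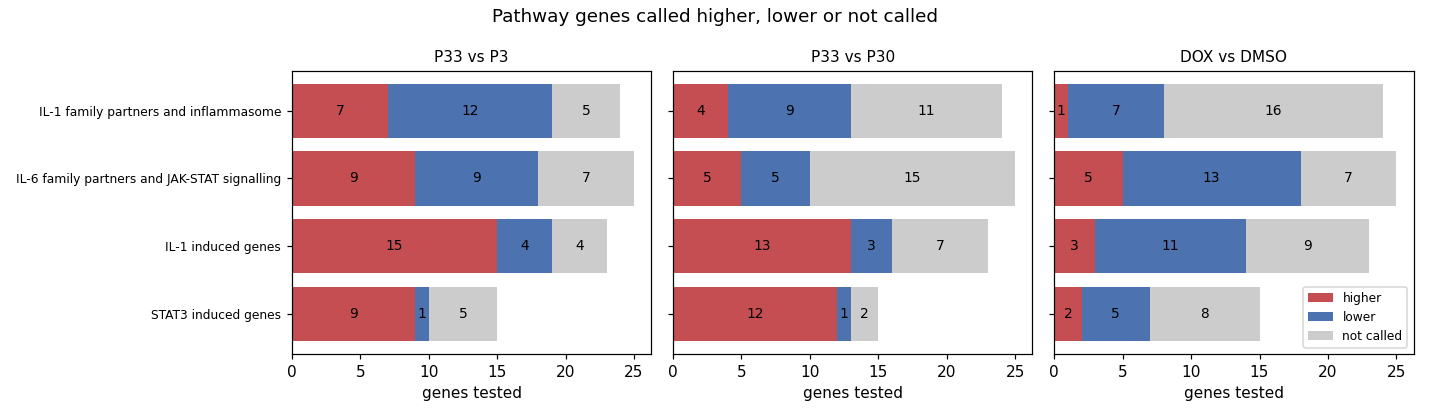
Number of tested genes of each of the 4 pathway lists called higher (red), lower (blue) or not called (grey) at P33 against P3, at P33 against P30 and with DOX against DMSO. In the IL-1-induced list 15 genes are higher and 4 lower at P33 against P3, and 3 are higher and 11 lower with DOX.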

How the data were processed

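Per the submitters' processing notes, reads were handled with FastQC 0.11.9, cutadapt 3.3, HISAT2 2.1.0, SAMtools 1.11 and featureCounts 2.0.1, with the builds hg38 and GRCh38.p13 and DESeq2 1.34.0 also named. Their options are not stated there. The deposited table, made by the authors, holds whole-number read counts per gene that are not normalized. The filter filterByExpr (minimum count 10) left 16821 of 61544 genes. Counts were fitted with edgeR 4.0.16 (R 4.3.3, with limma 3.58.1; TMM factors 0.899 to 1.13, quasi-likelihood, 1 mean for each of 7 groups over 21 libraries, no replicate block). Tests were two-sided, with Benjamini-Hochberg adjusted p-values over all genes tested and a threshold of 0.05. CPM are counts scaled to TMM-adjusted library sizes, and levels per kilobase use merged exons of GENCODE 29. On simulated counts over 16821 genes, 81% of 2-fold and 95% of 4-fold changes were recovered for P33 with P3, and 82% and 96% for DOX with DMSO. No library was a copy of another of its group (chi-square per degree of freedom 2.69 to 11.1).

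The members and gene lists were chosen with earlier results of these data known. By rule, the named genes were all members, the partner receptors, up to 3 genes of each list with the largest change that passed at 1 CPM or more, and the 3 nearest genes by passage course; 1 gene that the rule names is not reported here. Other genes, named to account for counts of 5 or fewer or as markers, were picked after their values were seen. Alternatives were DESeq2 1.42.0, RLE factors, other count filters, a replicate block, separate fits of the passage and drug libraries, and leaving out each library.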

Additional observations from a re-analysis of the deposited data

Results flagged for a closer look

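For 6 of the 9 members tested, the effect of DOX against DMSO differed from that of P33 against P3 when the difference itself was tested in 1 model (edgeR quasi-likelihood test). The DOX effect minus the P33 effect, on the log2 scale, was -3.05 for IL1A, -1.70 for IL1B, -1.05 for IL1R1, -0.95 for IL1RAP, -1.26 for IL6 and -0.77 for LIF. In the background of all genes tested, 51.2% differed. IL6 had a P33 effect and a DOX effect of opposite sign, and for the other 5 genes both effects had the same sign. The P33 effect is against P3. Against P11 the P33 difference was 2.49 for IL1A, and for IL6 it was 0.37 and not called. Passage, agent and the counting of the libraries differ between the 2 effects and cannot be told apart as the source of the difference.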

How the results depend on the processing

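Over all comparisons and alternatives, a member kept its side of the threshold 1336 times, lost its call 41 times and gained one 14 times. A called change reversed its sign 0 times. Changes that were not called could change sign, as IL1B did for P11 with P3 (log2 difference from -0.10 to 0.36). For DOX with DMSO, no call for a member changed under any alternative run. An alternative chosen after seeing the data left out genes that overlap another on the same strand, which drops IL1RAP and LIFR and tests fewer genes by construction. It gave 5196 genes called and 1 member higher for P11 with P3, 1 member lower for P33 with P3, 3734 genes called for P24 with P11, 1 member higher for P30 with P24, 5416 genes called for P33 with P30 and 1 member lower for P33 with P11, against 7825, 2, 2, 5658, 2, 8142 and 2.

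Leaving out each library in turn gave 1 to 3 members higher for P24 with P11, 3 to 5 lower for P30 with P24 and 1 to 2 lower for P33 with P3. The replicate numbers did not pair the libraries (correlations of same-numbered deviations from -0.08 to 0.04). With a replicate block 11377 genes were called for P33 with P3 and 6221 for DOX with DMSO, against 11408 and 6278, and libraries correlated best with their own number in 0 to 3 of 3 pairs. The P3 level of IL1A rests on 10, 10 and 5 reads. The trace counts of IL33 allow no comparison.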
